A study of Mus musculus with 36 samples.

Results

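The data described here follow Py230 primary tumors from 3 to 6 weeks post-inoculation (w p.i.). The members are the 6 libraries labelled Py230 tumor at these times, 3 tumors at 3 w p.i. and 3 at 6 w p.i., out of 36 libraries in the series. Py230 is a cell line that was derived from mammary tumors of MMTV-PyMT transgenic C57BL/6 mice, in which the mouse mammary tumor virus promoter drives the polyoma middle T oncogene in mammary epithelium. The cells were inoculated into the ducts, through the nipple, of lactating C57BL/6 females that had been mated as young adults and whose pups were weaned shortly before the inoculation. All tumors and control glands compared here therefore come from mice that had lactated. The tumor libraries come from whole snap-frozen tumors and contain tumor cells together with host gland, stroma and immune cells. C57BL/6 glands that received Matrigel®, the carrier of the cells, and no tumor cells were sampled at the same times (3 at 3 w p.i. and 3 at 6 w p.i.) and served to see whether the gland itself changed. Where a change is set beside that of the other model of the series, the 4T1 tumors grew from BALB/c-derived 4T1 cells, which carry firefly luciferase, in lactating BALB/c females and also number 3 at each time. Nothing in the labels says that tumors of different times came from the same mouse, and the Py230 line stands for a single tumor line.

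An intraductal tumor starts inside the milk ducts, where it is enclosed by luminal epithelium, a myoepithelial layer and a basement membrane, and it becomes invasive when it crosses these. The gland around it holds abundant adipocytes, and after weaning its secretory epithelium stops making milk, a program that depends on prolactin, the transcription factor STAT5 and its partner ELF5. Epithelial-mesenchymal transition (EMT) is the name for the gain of mesenchymal genes such as that of N-cadherin by epithelial cells. All these compartments contribute RNA to a bulk library, and in bulk RNA fewer cells of a type and less RNA per cell cannot be told apart.

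The expression values are scores that the authors deposited for 21650 genes: they are standardized in each library (mean 0, SD 1) and behave like logarithms. As a rough guide, 1 score unit corresponded to 2.78 log2 units of the authors' mean normalized count across the 13567 genes with a mean count of at least 100. The depth of the libraries is unknown from such values, so precision was judged by the spread between libraries of the same group. In the main fit this spread was pooled over all 12 groups of the series. An SE can therefore differ from what the 3 tumors of each time alone would give. Differences are given as 6 w p.i. minus 3 w p.i. in score units with their standard error (SE), and adjusted p-values are limma's moderated test with Benjamini-Hochberg adjustment over all genes. A gene is said to have risen or fallen where that adjusted p was under 0.05. An exact permutation test of 3 against 3 libraries cannot give a p below 0.1, and was therefore not used for single genes.

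The 3 tumors at 3 w p.i. were unlike each other. The library of tumor 3 correlated at 0.980 to 0.991 with the 6 Matrigel® glands, as closely as these glands with each other (0.979 to 0.993), and at 0.943 to 0.968 with the tumors at 6 w p.i. The library of tumor 1 correlated at 0.922 to 0.938 with the glands and at 0.978 to 0.988 with the tumors at 6 w p.i., and that of tumor 2 lay between. The same order appeared in the marker lists. The 22 adipocyte markers had a mean score of 0.62, 1.72 and 1.97 in tumors 1, 2 and 3 at 3 w p.i., of 0.305, 0.41 and 1.02 at 6 w p.i., and of 1.81 to 2.22 in the glands. The 18 skeletal muscle markers had a mean of −0.754, 0.258 and 1.75 at 3 w p.i. and of −0.743, 0.86 and 0.67 at 6 w p.i., so muscle did not separate the times. Luminal epithelial markers were as high in the tumors (1.16 to 1.31 over both times) as in the glands (0.999 to 1.24). They therefore cannot tell a tumor library from a gland library. Because adipocyte signal falls between the times, the tests between the times were also run in further fits. These left out tumor 3 of 3 w p.i., used the adipocyte mean as a covariate, or kept tumor 1 as the only library of 3 w p.i. Many calls were not kept in them.

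**Figure D1:**
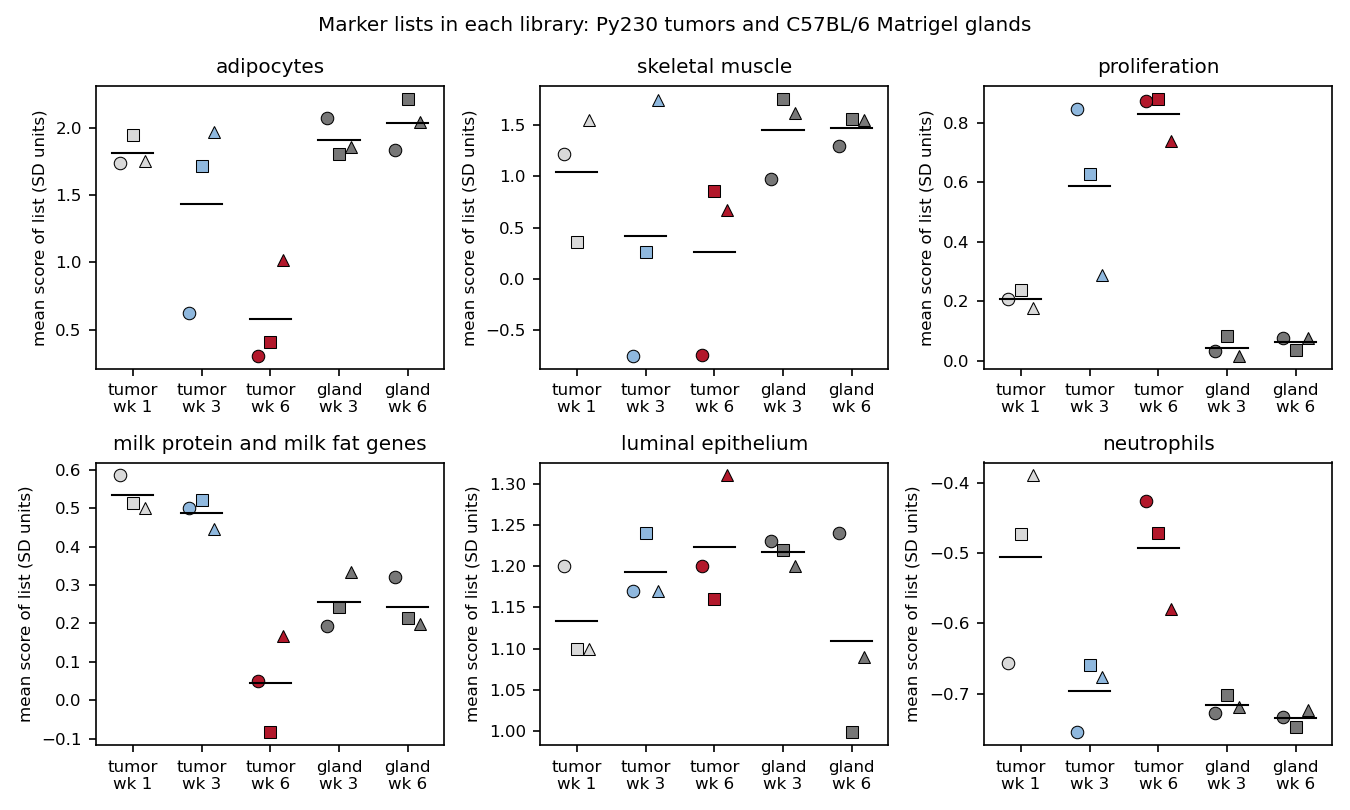
Mean score (SD units within a library) of 6 marker lists in each library of the Py230 tumors at each of the 3 time points and of the C57BL/6 Matrigel® glands at 3 and 6 w p.i. Circles, squares and triangles are tumors or glands 1, 2 and 3, and lines are group means. Adipocyte markers spread from 0.62 to 1.97 among the tumors of 3 w p.i., while milk genes are near 0.5 in all 3 of them and at most 0.168 at 6 w p.i.

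Between 3 and 6 w p.i., 858 genes rose and 447 fell in Py230 tumors, which is 3.96% and 2.06% of the genes tested and 6.03% together. In the Matrigel® glands 21 genes rose (0.097%) and 26 fell (0.12%), 0.217% together. The change in the tumors differed from the change in the glands for 986 genes (4.55%), being more positive for 647 (2.99%) and more negative for 339 (1.57%). The 3 values of 6 w p.i. lay entirely above those of 3 w p.i. for 12.3% of all genes and entirely below for 10.3%. The counts in the tumors and in the glands depend strongly on how the spread is estimated. With the spread taken from the 6 tumor libraries alone instead of all 36, 83 genes rose and 9 fell in the tumors. With that of the 6 gland libraries alone, 72 genes rose and 63 fell in the glands. Leaving out single libraries gave 1925 higher and 1336 lower without tumor 1 of 3 w p.i., 495 and 172 without tumor 2 of 3 w p.i., 447 and 205 without tumor 3 of 3 w p.i., 394 and 140 without tumor 1 of 6 w p.i., and 318 and 61 without tumor 2 of 6 w p.i. The median SD of a gene was 0.0759 among the tumors at 3 w p.i. and 0.0469 at 6 w p.i. All 1305 genes called kept the sign of their difference in each of the 6 fits without 1 tumor, and 1285 did against tumor 1 as the only tumor of 3 w p.i. These genes were chosen with the same tumors, which favors an unchanged sign. Among the 6 fits, 375 (without tumor 2 of 6 w p.i.) to 1177 (without tumor 1 of 3 w p.i.) of them stayed called.

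Genes were therefore first described where the call held under all 15 alternative analyses. These were 32 genes, all higher at 6 w p.i., and none was lower. The alternatives include all 6 fits that leave out a tumor, the fit on the tumor libraries alone, the adipocyte covariate and the comparison with tumor 1 as the only tumor of 3 w p.i. For 31 of the 32 genes the change in the tumors was also larger than that in the glands, the exception being the aldehyde oxidase gene Aox3 (rise 0.93, limma adjusted p of the difference from the gland 0.0613). The rise used for the selection enters this difference, so the selection favors that count. The selection uses the same comparison as the differences below, and the grouping of these genes by role was made after their values were seen.

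**Figure D2:**
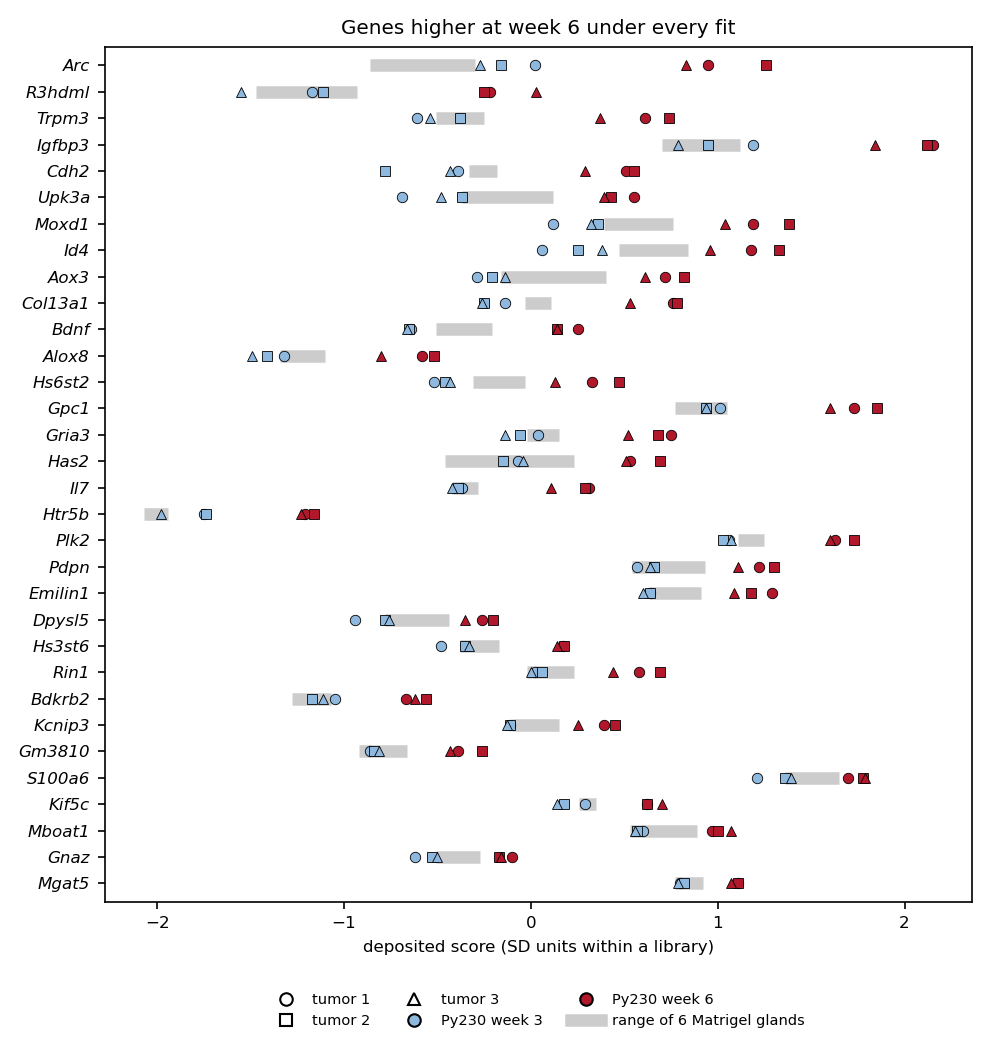
Deposited score of the 32 genes that were higher at 6 w p.i. in the main and all 15 alternative analyses, ordered by the difference. Light blue symbols are the 3 Py230 tumors of 3 w p.i., red symbols those of 6 w p.i. (circle, square and triangle for tumors 1 to 3), and grey bars span the 6 C57BL/6 Matrigel® glands. In every row the 3 red symbols lie to the right of the 3 blue ones, and Mgat5 has the smallest difference (0.30).

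Cdh2 encodes N-cadherin, the adhesion protein of mesenchymal and neural cells. Its scores in tumors 1, 2 and 3 were −0.39, −0.78 and −0.43 at 3 w p.i. and 0.51, 0.55 and 0.29 at 6 w p.i., and −0.33 to −0.18 in the glands. All tumors of 6 w p.i. lay above every tumor of 3 w p.i. and every gland. The difference between the times was 0.98 ± 0.08 (SE from the pooled spread, n = 3 per group, limma adjusted p = 3.15e-08). The SD of Cdh2 was 0.217 among the tumors of 3 w p.i. and 0.14 among those of 6 w p.i. Its mean at 1 w p.i. was −0.25, so the level at 6 w p.i. was above both earlier times.

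Bdnf (chr2:109674700-109727007, mm10, plus strand), the gene of the neurotrophin BDNF, scored −0.64, −0.65 and −0.66 at 3 w p.i. and 0.25, 0.14 and 0.14 at 6 w p.i. The tumors of a time point hardly differed, and the rise was 0.83 (limma adjusted p = 1.39e-06). Further genes with known roles in neurons were in the set. How common such genes are among all genes was not counted. The separate list of 11 nerve and Schwann cell genes had a median difference of −0.149, with 3 positive differences. Of these 11 genes 3 rose and 1 fell, beside 3.96% and 2.06% of all genes. Arc (chr15:74669083-74672570, minus strand), an activity-regulated gene, scored 0.02, −0.16 and −0.27 and then 0.95, 1.26 and 0.83. Trpm3, which encodes a calcium-permeable channel, scored −0.61, −0.38 and −0.54 and then 0.61, 0.74 and 0.37, with all glands between −0.51 and −0.25. The glutamate receptor subunit gene Gria3 rose by 0.70, Dpysl5, a gene of growing axons, by 0.55, the calcium sensor gene Kcnip3 by 0.48 and the kinesin heavy chain gene Kif5c by 0.44. The serotonin receptor gene Htr5b also rose (0.62), at scores of at most −1.16 in every tumor and with an authors' mean normalized count of 10.2.

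Several of the 32 genes act at the cell surface or in the pericellular matrix. Has2 (chr15:56665627-56694539, minus strand), which encodes a hyaluronan synthase, scored −0.07, −0.15 and −0.04 at 3 w p.i. and 0.53, 0.69 and 0.51 at 6 w p.i. It is the exception among these genes in the glands, where it fell by 0.50 (limma adjusted p = 0.049). Gpc1, the gene of the heparan sulfate proteoglycan glypican-1, rose from 1.01, 0.94 and 0.94 to 1.73, 1.85 and 1.60. The sulfotransferase genes Hs6st2 and Hs3st6, whose enzymes modify heparan sulfate chains, rose by 0.78 and 0.55. Podoplanin (Pdpn), a mucin-like protein of lymphatic endothelium, stroma and some invasive tumor cells, rose by 0.59, the transmembrane collagen gene Col13a1 by 0.90 and Emilin1, of elastic fibers, by 0.56. Mgat5, which branches N-glycans, had values close together, 0.80, 0.82 and 0.79 against 1.11, 1.11 and 1.07.

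Among secreted regulators, Igfbp3 (chr11:7206086-7213923, minus strand), a binding protein of insulin-like growth factors, scored 1.19, 0.95 and 0.79 at 3 w p.i. and 2.15, 2.12 and 1.84 at 6 w p.i. (difference 1.06, limma adjusted p = 0.000122). Il7 (chr3:7569994-7613760, minus strand), a cytokine needed for lymphocyte survival, scored −0.37, −0.39 and −0.42 and then 0.31, 0.29 and 0.11. Its glands did not exceed −0.28. Among intracellular regulators, Plk2, a stress-responsive polo-like kinase gene, scored 1.06, 1.03 and 1.07 and then 1.63, 1.73 and 1.60 (limma adjusted p = 4.13e-07), and Id4, an inhibitor of basic helix-loop-helix factors, rose by 0.93. The uroplakin gene Upk3a (0.97), the lipoxygenase gene Alox8 (0.78), the Ras effector gene Rin1 (0.54), the bradykinin receptor gene Bdkrb2 (0.49), the calcium-binding protein gene S100a6 (0.44), the acyltransferase gene Mboat1 (0.44), the G protein gene Gnaz (0.41), Moxd1 (0.94), R3hdml (1.13) and the predicted gene Gm3810 (0.48) complete the set.

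Outside this set the largest rises, among genes without overlap and with an authors' mean normalized count of at least 100, belonged to Clca1, Nptx1, C1qtnf3, Megf10, Pi15, S100a14 and Nrg1, with differences between 1.00 and 1.45. Clca1, a secreted regulator of chloride channels known from mucus-producing epithelium, scored −0.01, −0.32 and −1.06 at 3 w p.i. and 1.02, 1.13 and 0.83 at 6 w p.i. Nptx1, a neuronal pentraxin gene, scored 0.36, −0.24 and −0.79 and then 1.23, 1.34 and 0.89. Nrg1, the ligand of the ErbB3 and ErbB4 receptors, scored 0.17, 0.08 and −0.34 and then 0.97, 1.20 and 0.75. In all 3 genes the groups did not overlap, but among the tumors of 3 w p.i. tumor 3, with the highest adipocyte signal, was lowest and tumor 1, with the lowest, was highest. Against tumor 1 alone the differences were 1.00 for Clca1, 0.80 for Nptx1 and 0.80 for Nrg1, with limma adjusted p of 0.396, 0.0624 and 0.0525.

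Besides the 32 genes, Pi15, Foxa1, Cxcr2, Hes1 and Igfbp4 were the only genes named in this text as having changed that also passed with the spread of the 6 tumor libraries alone. Each call in the tumors below that concerns another gene was lost in that fit.

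The genes of milk proteins and milk fat secretion were the list with the largest share of members that fell. Of 16 measured genes 10 fell and none rose, against 2.06% of all genes that fell, and the median difference was −0.43 against 0.00797 over all genes. The list's mean score was 0.499, 0.52 and 0.445 in the tumors of 3 w p.i. and 0.05, −0.083 and 0.168 at 6 w p.i., after 0.501 to 0.585 at 1 w p.i. Its level in the 6 glands was 0.194 to 0.333 with a median difference of −0.012 between the times. By this list mean, the tumors of 3 w p.i. lay above all glands and those of 6 w p.i. below all glands. Single genes differed in this. At 3 w p.i. the tumor mean of Csn2 was 0.85, below its gland range of 1.19 to 1.46. That of Wap was −0.1, above its gland range of −1.5 to −1.05. Unlike that of the adipocyte markers, the mean of the milk list differed little between tumors 1, 2 and 3 of 3 w p.i. Its single genes did not share an order: Csn1s1 scored 1.135, 1.888 and 2.05 in these tumors, and Wap was lower in tumor 3 than in tumor 1. None of the 10 falls passed with the spread of the 6 libraries alone, 9 passed without tumor 3 of 3 w p.i., 7 with the adipocyte covariate and 3 against tumor 1 alone.

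Btn1a1 (chr13:23456992-23465901, minus strand), butyrophilin of the milk fat globule membrane, scored 1.22, 1.42 and 1.62 at 3 w p.i. and 0.47, 0.21 and 0.79 at 6 w p.i. (difference −0.93 ± 0.13 SE, limma adjusted p = 6.71e-05). Its partner in fat globule secretion, Xdh, scored 1.72, 1.77 and 1.79 and then 1.37, 1.34 and 1.497, and the globule mucin gene Muc15 scored 1.41, 1.37 and 1.43 and then 0.67, 0.57 and 1.08. In these 3 genes the times did not overlap and the tumors of 6 w p.i. lay below all glands. Plin2, which coats lipid droplets and is not a member of the milk list, scored 1.95, 1.91 and 1.92 and then 1.53, 1.49 and 1.66. The caseins Csn1s1 (−0.83), Csn2 (−0.94), Csn1s2a (−0.92) and Csn3 (−0.45), the whey acidic protein gene Wap (−0.75), the lactose synthase cofactor gene Lalba (−0.49) and the thioesterase gene Olah (−0.41) also fell. Csn2 scored 0.38, 1.02 and 1.14 and then 0.08, −0.20 and −0.15, so its value in tumor 1 of 3 w p.i. was nearer to 6 w p.i. than to its group. Wap had the opposite order, 0.16, −0.02 and −0.46 at 3 w p.i., and stayed called against tumor 1 alone (difference −1.02, limma adjusted p = 0.029).

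**Figure D3:**
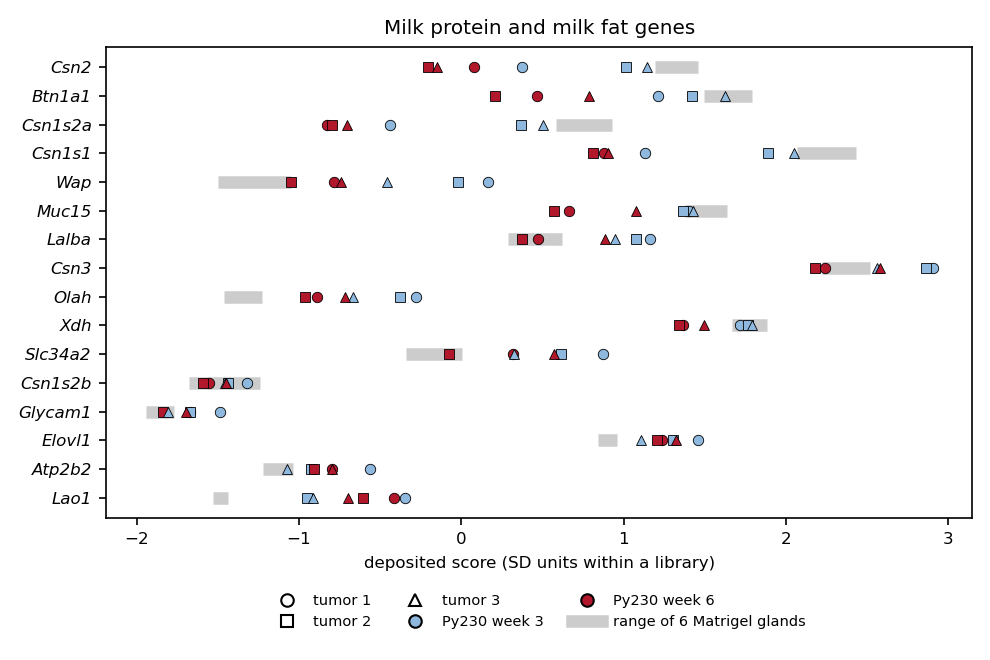
Deposited score of the 16 milk protein and milk fat genes, ordered by the difference between 6 and 3 w p.i. Light blue symbols are Py230 tumors of 3 w p.i., red symbols those of 6 w p.i. (circle, square and triangle for tumors 1 to 3), and grey bars span the 6 Matrigel® glands. In 9 rows the red symbols lie left of all blue ones, beside 10.3% of all genes, with the widest gap in Btn1a1.

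Stat5a (chr11:100859351-100885169, plus strand), which transmits prolactin signals to milk genes, scored 1.19, 1.16 and 1.15 at 3 w p.i. and 0.85, 0.76 and 0.96 at 6 w p.i. The fall of 0.31 (SE 0.05, limma adjusted p = 0.000523) held in all alternatives except the fit on the 6 libraries alone (adjusted p = 0.0822). Elf5, the alveolar factor that acts with it, scored 1.49, 1.47 and 1.36 and then 1.14, 1.05 and 1.30 (limma adjusted p = 0.0387), a call that 8 of the 15 alternatives did not keep. Ltf, the gene of the milk and neutrophil protein lactoferrin, scored 1.89, 2.14 and 2.23 and then 1.505, 1.29 and 1.60.

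STAT factors bind the letters TTCNNNGAA, which read the same on both strands. In the RefSeq promoter table of the mouse assembly GRCm38.p6 (the assembly that mm10 denotes), which holds 250 bases before and 50 after each start, 8.3% of 32851 promoters contain these letters. Of the 16 milk genes 11 had an entry, and 4 of these contained the letters. These 4 are shown because they are the members of the list whose entry holds the letters, in windows of 30 bases with the match in capitals, on the strand of the gene.
Csn1s1: tttgtaacaaTTCTTAGAAtttatgtaaaa
Csn2: tcacgtagacTTCTTGGAAttgaagggact
Csn1s2a: ttatagtgctTTCTTAGAAttacaatgact
Glycam1: gccaactcatTTCCCAGAAacaccaattcc
The windows lie at chr5:87666098-87666127 on the plus strand (Csn1s1), chr5:87699499-87699528 on the minus strand (Csn2), chr5:87774460-87774489 on the plus strand (Csn1s2a) and chr15:103565207-103565236 on the minus strand (Glycam1). Relative to the start in the RefSeq promoter table the match begins at −100 in Csn1s1, −93 in Csn2, −145 in Glycam1 and 20 in Csn1s2a. The GENCODE annotation starts Csn1s2a further downstream, at base 87774567, so by that start this match also lies before the gene. Csn1s1, Csn2 and Csn1s2a fell, whereas Glycam1 was near the lower end of the scores (−1.84 to −1.49 in the tumors) and did not pass the test (adjusted p = 0.706). A match of letters is a description of sequence and no measurement of binding.

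Genes of the luminal epithelial list moved in both directions. Of 20 luminal genes Foxa1, Krt19 and Krt7 rose and Muc1 and Elf5 fell, beside 3.96% and 2.06% of all genes, with a median difference of −0.034. Foxa1 (chr12:57540628-57546916, minus strand), a pioneer factor of luminal hormone-sensing cells, scored 0.85, 0.94 and 0.95 at 3 w p.i. and 1.39, 1.35 and 1.45 at 6 w p.i., and all tumors of 6 w p.i. lay above the glands (1.05 to 1.31). The keratin gene Krt19 scored 1.501, 1.79 and 1.88 and then 2.09, 2.10 and 2.16. The mucin gene Muc1 fell, from 0.86, 0.94 and 1.03 to 0.46, 0.30 and 0.69.

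In the EMT hallmark of the authors' deposited gene categories, 32 of 183 measured genes rose and 1 fell, beside 3.96% and 2.06% of all genes, and the median difference was 0.118. The count of genes that rose was 22 without tumor 3 of 3 w p.i., 21 with the adipocyte covariate, 16 against tumor 1 alone and 6 with the spread of the 6 libraries alone. Its members with the smallest p-values were Cdh2, Bdnf, Dpysl3 and Igfbp3. Dpysl3, a gene of cytoskeletal remodeling in neurons and other migrating cells, scored 0.98, 1.11 and 1.17 and then 1.62, 1.79 and 1.42. In a shorter list of 16 EMT regulators and mesenchymal markers Cdh2 and the repressor gene Snai1 rose, Snai1 by 0.33 (limma adjusted p = 0.0022).

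Matricellular proteins, secreted signals of the matrix, gave 4 rises among 18 genes and no fall, beside 3.96% and 2.06% of all genes. With the adipocyte covariate, and against tumor 1 alone, 1 of the 18 was called. Cyr61 (listed elsewhere as Ccn1) scored 1.10, 0.75 and 0.74 and then 1.48, 1.39 and 1.48, and Wisp1 (Ccn4) rose by 0.60, tenascin C (Tnc) by 0.57 and Fbln2 by 0.30. Wisp1 differed by 0.26 with the covariate and by 0.28 against tumor 1 alone, and the calls of Wisp1, Tnc and Fbln2 were lost with the covariate. The fibroblast list had a negative median difference (−0.256), yet 3 of its 17 genes rose and none fell. These were fibromodulin (Fmod, 0.67), Serpinf1 (0.43) and the fibroblast activation protein gene Fap (0.35). The list's mean was 0.915, 1.39 and 1.55 at 3 w p.i. and 0.93, 1.19 and 1.16 at 6 w p.i., an order among the tumors of 3 w p.i. like that of the adipocyte markers. Of 26 fibrillar and basement membrane genes Lamc1 rose (0.36) and Lama2 fell. The matrix-cleaving protease genes Adamts4 and Adamts1 rose by 0.53 and 0.38, the only genes to do so among 20 metalloproteinases and inhibitors. No endothelial marker of 19 changed by limma's test. Of 14 angiogenic ligands Pgf (0.64), Pdgfa (0.41) and Pdgfb (0.28) rose and none fell, beside 3.96% and 2.06% of all genes. The median difference of the 14 was −0.059, and 6 of the differences were positive. The call of Pdgfb was lost without tumor 1 of 3 w p.i. and without tumor 1 or tumor 2 of 6 w p.i.

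**Figure D4:**
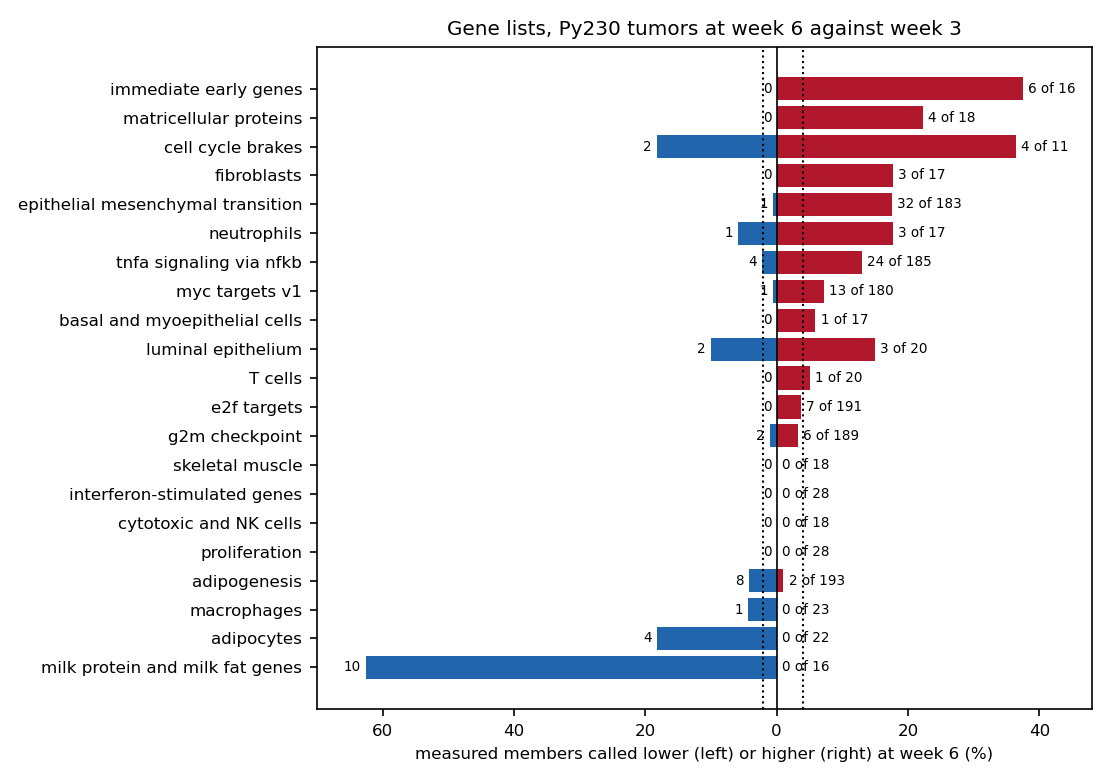
Share of the measured members of 21 gene lists that were higher (red, right) or lower (blue, left) at 6 than at 3 w p.i. in Py230 tumors, with the number of genes beside each bar. Dotted lines mark the share over all genes, 3.96% higher and 2.06% lower. Milk genes stand at 10 of 16 lower and immediate early genes at 6 of 16 higher.

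Cell division genes were higher in both times than in the glands but did not pass the test between the times. The mean of the 28 proliferation genes was 0.847, 0.63 and 0.289 in tumors 1, 2 and 3 of 3 w p.i., 0.874, 0.881 and 0.739 at 6 w p.i., 0.177 to 0.238 at 1 w p.i. and 0.018 to 0.082 in the glands. Tumor 1 of 3 w p.i. was thus at the level of 6 w p.i. and tumor 3 near that of 1 w p.i. None of the 28 genes was called by limma, although all 28 differences were positive with a median of 0.247. The median was 0.095 without tumor 3 of 3 w p.i., −0.093 with the adipocyte covariate and −0.024 against tumor 1 alone. Mki67, the gene of the Ki67 antigen, scored 1.59, 1.30 and 0.99 and then 1.58, 1.58 and 1.37 (limma adjusted p = 0.577). Of the authors' hallmarks, E2F targets had 7 of 191 genes higher and none lower, G2M checkpoint 6 of 189 higher and 2 lower, and MYC targets V1 13 of 180 higher and 1 lower. These shares compare with 3.96% of all genes. With tumor 1 as the only tumor of 3 w p.i. no gene of the 3 hallmarks was called in either direction.

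Genes that restrain the cell cycle were measured in a list of 11, of which 4 rose and 2 fell, beside 3.96% and 2.06% of all genes. The antiproliferative gene Btg2 scored 1.15, 0.99 and 1.00 and then 1.34, 1.29 and 1.53, the inhibitor genes Cdkn2a and Cdkn2b rose by 0.44 and 0.36 and Cdkn1a, the p53 target that encodes p21, by 0.25. The retinoblastoma gene Rb1 fell from 1.09, 1.29 and 1.43 to 1.00, 0.95 and 1.07, and its relative Rbl2 from 0.84, 0.85 and 0.96 to 0.74, 0.75 and 0.81. With the spread of the 6 libraries alone none of the 11 was called.

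Of the 16 immediate early genes, which respond within minutes to growth factors and to handling of tissue, 6 rose and none fell, beside 3.96% and 2.06% of all genes. Egr1 scored 1.41, 1.04 and 1.10 at 3 w p.i. and 1.79, 1.77 and 1.88 at 6 w p.i., and Jun, Ier2 and Ier3 rose by 0.23, 0.32 and 0.43. No member was called without tumor 3 of 3 w p.i., against tumor 1 alone or with the spread of the 6 libraries alone. The part of tissue handling was not tested. The hallmark TNFA signaling via NFKB, which shares such genes, had 24 of 185 genes higher and 4 lower, beside 3.96% and 2.06% of all genes, and 11 and 1 without tumor 3 of 3 w p.i. Against tumor 1 alone the counts were 4 and 2. Its members with the smallest p-values were Plk2 and Fjx1, which scored −0.02, 0.01 and −0.02 and then 0.53, 0.61 and 0.35.

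Growth factor systems changed in single members. In the insulin-like growth factor list Igfbp3, Igfbp4 and Igfbp2 rose among 16 genes and the ligand gene Igf1 fell. Igfbp2 scored 1.65, 1.45 and 0.74 and then 2.31, 2.26 and 2.13, far above the glands (0.09 to 0.74) except in tumor 3 of 3 w p.i. Its call was lost without this tumor and with the adipocyte covariate, where it differed by 0.53. Igfbp4 scored 1.81, 1.79 and 1.75 and then 2.09, 2.15 and 2.07. The fall of Igf1 (−0.53) rests on tumors 2 and 3 of 3 w p.i., since against tumor 1 alone the difference was 0.11 (limma adjusted p = 0.854). Among 17 ErbB, Met and Fgf ligands and receptors Nrg1 and Hbegf (0.40) rose, and Met, the receptor of hepatocyte growth factor, fell from 1.19, 1.25 and 1.33 to 0.85, 0.76 and 1.01, beside 3.96% and 2.06% of all genes. Hbegf differed by 0.21 with the adipocyte covariate (limma adjusted p = 0.444), and 8 of the 15 alternatives did not keep its call. Of 19 Wnt, Notch and Hedgehog targets the Notch targets Nrarp (0.43) and Hes1 (0.27) and the T-cell and Wnt factor gene Tcf7 (0.58) rose. The call of Tcf7 was lost without tumor 3 of 3 w p.i. and with the adipocyte covariate, whereas Nrarp and Hes1 kept theirs in these fits. Nrarp lost its call without tumor 2 of 6 w p.i. Against tumor 1 alone Nrarp differed by 0.448 and Hes1 by 0.254.

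Calls among immune genes were scattered over the lists. In the inflammatory response hallmark 13 of 184 genes were higher and 6 lower, beside 3.96% and 2.06% of all genes. The checkpoint list had 1 of 18 genes higher, the regulatory T-cell list 1 of 15 higher and the B-cell list 1 of 15 higher and 1 lower. None of 18 cytotoxic and NK cell genes, of 28 interferon-stimulated genes, of 16 MHC class I genes and of 11 MHC class II genes was called by limma. Class II genes were positive in all 11, with a median of 0.207, but the glands had a median of 0.146. Of 20 T-cell genes only Tcf7 rose. The T-cell list had a mean of −0.054, −0.217 and −0.53 at 3 w p.i. and −0.106, −0.32 and 0.003 at 6 w p.i., groups that overlap. Macrophage markers had list means that overlapped, 0.67 to 0.836 at 3 w p.i. and 0.709 to 0.832 at 6 w p.i. Of the 23 genes 11 had all values of 6 w p.i. above those of 3 w p.i. and 2 had them below, beside 12.3% and 10.3% of all genes, but limma called only 1. This was Retnla, a gene of alternatively activated macrophages and of fat tissue, which scored 1.02, 1.66 and 1.79 and then −0.27, 0.65 and 0.89. Against tumor 1 alone Retnla differed by −0.60 (limma adjusted p = 0.476).

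Of 17 neutrophil genes the receptor gene Cxcr2, S100a9 and Camp rose and Ltf fell, beside 3.96% and 2.06% of all genes. Cxcr2 scored −1.54, −1.31 and −1.44 and then −0.54, −0.46 and −0.59, with the glands at −1.61 to −1.36. S100a9, a calprotectin subunit gene, scored −1.16, −0.91 and −1.15 and then −0.14, −0.20 and −0.55. The list's mean was −0.755 to −0.659 at 3 w p.i. and −0.579 to −0.426 at 6 w p.i. without overlap, in a range that at 1 w p.i. was −0.657 to −0.389. With the adipocyte covariate Cxcr2 differed by 0.63 (limma adjusted p = 0.123) and S100a9 by 0.57 (adjusted p = 0.136), against 0.90 and 0.78 without it. Against tumor 1 alone they differed by 1.01 and 0.86 (adjusted p = 0.0714 and 0.0884). Ptgs2, the cyclooxygenase-2 gene, scored −0.29, −0.73 and −0.56 and then 0.26, 0.43 and 0.20. Il6 rose by 0.52 at low scores (at most −0.78 in every tumor), and of 22 chemokines the neutrophil ligand gene Cxcl1 (0.64) and Cx3cl1 (0.32) rose and Ccl28 fell. Without tumor 3 of 3 w p.i. the calls of S100a9, Camp, Il6, Cxcl1 and Cx3cl1 were lost. With the adipocyte covariate those of Cxcr2, S100a9, Camp, Ptgs2, Il6 and Cx3cl1 were lost. Ccl28, a chemokine of mucosal and mammary epithelium, scored −0.77, −0.71 and −0.67 and then −1.28, −1.20 and −1.09, also lower with the adipocyte covariate (limma adjusted p = 0.00221) and against tumor 1 alone (adjusted p = 0.0165).

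Among genes called without overlap between the times and averaging 100 or more of the authors' normalized counts, the 12 largest falls comprised 6 immunoglobulin variable segments (Igkv8-27, Igkv6-23, Ighv1-82, Igkv4-55, Ighv1-55 and Ighv1-26), the lipid synthesis genes Scd1, Scd3 and Acacb, the pseudogene AC123853.3, Inmt and Retnla. Igkv8-27 (chr6:70171809-70172270, minus strand) scored −0.11, 1.07 and 1.15 at 3 w p.i. and −0.66, −0.75 and −0.19 at 6 w p.i., and in the glands it rose by 2.20 (limma adjusted p = 0.000784) between the same times. Such segments are near copies of each other, so their read assignment is uncertain, and each is expressed by the B and plasma cells that carry it. Scd1, a fatty acid desaturase gene of adipocytes and mammary epithelium, scored 2.80, 3.62 and 3.86 and then 2.23, 2.06 and 2.68. Scd3 (chr19:44203269-44244016) and AC123853.3 (chr19:44252517-44261446) lie near Scd1 (chr19:44394455-44407879), and Scd1 and Scd3 are close paralogs whose reads may be shared. All 12 were called by limma in the main analysis, and none against tumor 1 alone, where adjusted p ranged from 0.354 for Igkv6-23 to 0.855 for Ighv1-55. The adipocyte markers gave the same picture: 4 of 22 fell, namely Retn, Fabp4, Lpl and Scd1, beside 2.06% of all genes. All 22 differences were negative with a median of −0.835, and against tumor 1 alone the median was −0.008.

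Beside the same interval in 4T1 tumors, the change in Py230 tumors differed for 5784 genes (26.7%), 1922 in the positive (8.88%) and 3862 in the negative direction (17.8%). The positive share of these calls was 33.2%, and 50.7% with cyclic loess normalization (2666 and 2591 genes). The 4T1 tumors had an adipocyte marker mean of 0.767 to 2.15 at 3 w p.i. and −0.058 to 0.153 at 6 w p.i., a change in gland content of their own whose part was not tested. The genes compared here were picked for their change in Py230 tumors, which favors a difference of that sign from 4T1, so the values are a description. Of the 32 genes that rose under all alternatives, the change was more positive than in 4T1 tumors for 22 and less positive for 1, Bdkrb2. In 19 of these 23 the 4T1 mean was lower at 6 than at 3 w p.i. The group mean of Cdh2 went from −0.53 to 0.45 in Py230 and from −0.33 to −0.60 in 4T1 tumors (difference of changes 1.26). The milk list had lower means at 6 w p.i. in 4T1 tumors as well, where it went from 0.36 to 0.438 at 3 w p.i. to −0.73 to −0.701 at 6 w p.i., and for 8 of its 16 genes the change was more positive in Py230 (8.88% of all genes). The mean of Foxa1 went from 0.92 to 1.40 in Py230 and from 0.40 to −0.35 in 4T1 tumors, a difference of changes of 1.24. That of Krt19 went from 1.73 to 2.12 and from 1.58 to 0.87, a difference of 1.10.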

How the data were processed

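The 6 Py230 tumor libraries were compared through the deposited expression table (36 libraries, 12 groups of 3, groups from the sample labels). The authors prepared stranded libraries, aligned paired reads against mm10 using STAR, summarised them by gene and used DESeq2 for normalization, and versions and annotation are not given in the sources used here. The deposited values are scores, standardized in each library by steps the sources used here do not describe, and not counts, so depth is unknown and no count test was used. Deposited tables also hold the authors' mean normalized counts, used to choose named genes, and their fold changes and p-values, which were not used. All 36 libraries entered 1 fit, with a mean for each group, in limma 3.58.1 under R 4.3.3 (trend and robust options), a procedure first tested on simulated data. The simulation gave each gene the same spread in all groups, so it could not test the effect of unequal spread. Hallmark gene lists were the deposited gene categories. Named genes were the 12 largest rises and 12 largest falls called without overlap at a mean normalized count of at least 100, the 4 smallest p-values of each list, and list members as markers; the 32 genes held under all alternatives were added after their values were seen. Members and lists were chosen with earlier results of these data known. The adipocyte covariate and the comparison with tumor 1 alone were chosen after seeing the data. P-values measure the spread between separate tumors or glands. Gene positions are from GENCODE M21, on the same build, and 5547 genes were named from the reference.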

Additional observations from a re-analysis of the deposited data

Results flagged for a closer look

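The changes listed here differed between Py230 and 4T1 tumors by the limma test of the difference of changes (Py230 change minus 4T1 change, in score units), among the milk and luminal genes and the 32 genes that held under all alternatives. Most of these genes were picked for their change in Py230 tumors, which enters the difference, so the preponderance of one sign among them is favored by the choice. Groups of 3 libraries were too small for a test of single outlying libraries. Genes expressed in neurons gave 1.75 for Arc, 1.62 for Trpm3, 1.26 for Cdh2, 0.97 for Gria3, 0.62 for Dpysl5, 0.61 for Kcnip3 and 0.79 for Kif5c. Surface and matrix genes gave 0.90 for Pdpn, 1.39 for Col13a1, 0.42 for Hs6st2, 0.81 for Hs3st6 and 0.61 for Emilin1. Regulators gave 1.47 for Id4, 0.58 for Il7, 0.76 for Plk2, 0.68 for Gnaz and −0.65 for Bdkrb2. The remaining genes of the set gave 2.05 for Aox3, 1.37 for Upk3a, 1.18 for R3hdml, 0.87 for Alox8, 0.71 for Gm3810 and 0.32 for Mboat1. Milk genes gave 1.14 for Btn1a1, 1.32 for Muc15, 1.76 for Csn1s1, 1.01 for Csn1s2a, 1.67 for Csn2, 1.95 for Csn3, 1.00 for Lalba and 1.23 for Ltf. Luminal genes gave 1.53 for Elf5, 0.61 for Muc1, 1.24 for Foxa1 and 1.10 for Krt19. Positive values mean that the gene rose more, or fell less, in Py230 tumors.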

How the results depend on the processing

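Counts are given as genes higher and genes lower. Leaving out single libraries gave 318 to 1925 and 61 to 1336 in Py230 tumors, 6 to 14 and 6 to 19 in the glands, 239 to 1673 and 93 to 1119 for tumor against gland change, and 1663 to 2286 and 2922 to 4887 for Py230 against 4T1 change. With only the groups compared, the counts were 83 and 9 in the tumors, 72 and 63 in the glands and 1194 and 2164 for Py230 against 4T1. The adipocyte covariate gave 473 and 275 in the tumors and 250 and 174 against the gland change, and tumor 1 alone gave 274 and 244 and 164 and 120, with its spread assumed to be that of the other groups. Against tumor 1 alone 1285 of the 1305 genes called in the tumors kept their direction, and of the genes named in the text Igf1 (0.11) and Lpl (0.043) did not. Normalization by quantiles, cyclic loess or interquartile range, no trend, and a minimum mean normalized count of 10 moved the tumor counts by less than 1.5 times (752 to 894 and 443 to 610), and no scaling moved the median of all genes by over 0.1. With the replicate number as a block 905 genes were higher and 519 lower in the tumors. The numbers were not taken as pairs, since deviations of same-numbered Py230 tumors correlated at 0.607, −0.266 and 0.316. Depth is unknown and limits on low genes cannot be stated, and 3 tumors per time with unequal gland content limit every count.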
